A study of Saccharomyces cerevisiae with 4 samples.

Results

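The genes described here encode the enzymes and the transporter that turn the precursors of the 2 yeast mating pheromones into secreted peptides. They are 10 of the 7132 features in the count table, taken by name for their known roles. Earlier results of these data were known when they were chosen. The genes are STE6 (YKL209C), AXL1 (YPR122W), STE13 (YOR219C), STE14 (YDR410C), STE23 (YLR389C), STE24 (YJR117W), KEX1 (YGL203C), KEX2 (YNL238W), RAM1 (YDL090C) and RCE1 (YMR274C). All 10 had reads in all 4 libraries and passed the filter on low counts that left 6140 genes for testing.

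In a cells, a-factor is made as a short precursor that never enters the classical secretory pathway. A farnesyl group is joined to a cysteine near its carboxyl end by farnesyltransferase, the last residues are cut off, the new end is methylated, the amino end is trimmed in steps, and an ABC transporter carries the product across the plasma membrane. In α cells, α-factor is made as a precursor with several copies of the peptide, which is cut out and trimmed by proteases of the Golgi. Most of these enzymes are made in every cell type, whereas STE6 is an a-specific gene and AXL1 is a haploid-specific gene, both shut off in a/α diploids.

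RNA came from spores of an SK1-background diploid, a strain known for efficient sporulation, that carried the copper-inducible CUP1 promoter in front of IME1, the master inducer of meiosis. At the MATa allele a cassette held mCherry behind the GPD1 promoter and the hygromycin resistance gene hph. Spores of this single diploid, which are haploid and otherwise of the same genotype, were harvested 7 days after sporulation was induced with copper, freed from asci and sorted by color into red (RFP-positive) and non-red (RFP-negative) spores, with 2 replicates of each from separate sporulations and sorts. The methods of the study take red spores as MATa and non-red spores as MATα, while in the labels the strain entry reads MATa for non-red replicate 1 alone and MATalpha for the remaining 3 libraries, so the groups are named here by color. Vegetative cells and unsorted spores were not analysed here.

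The libraries held between 25493760 and 45697828 reads, of which the 10 genes took between 0.117% and 0.140%. The lowest count of any of these genes was 214 reads (RCE1 in non-red replicate 2), against a detection floor of 3 reads. That floor is a limit for counting error alone, because how reads from PCR copies were treated is not given. The sort check followed color: mCherry had 217 and 514 normalized CPM (reads scaled to a common library size) in the red libraries against 12.5 and 0 in the non-red ones, and hph had 1989 and 2415 against 98.6 and 37.7. All 6 spore markers (SPS100, DIT1, DIT2, SPS4, SPR1 and SMK1) had reads in every library, and their summed level was 2257 and 2941 CPM in red and 2464 and 3379 CPM in non-red spores. SPS4 was uneven, with 8 reads in red replicate 1 and 627 in red replicate 2. All 6 markers of proliferating cells (CLN1, CLN2, CLB2, SWI5, HTA1 and RNR1) also had reads in every library, with sums of 481 and 411 CPM in red and 429 and 383 CPM in non-red spores. None of the 12 markers was at 0 in any library, and the part of unsporulated cells in the results below was not tested. In sorted populations a lower share of cells with a transcript and less transcript per cell cannot be told apart.

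The substrates are shown first, because each of the 10 genes acts on one of them. The ends of the a-factor precursor genes MFA1 (YDR461W, chrIV:1385224-1385286, plus strand) and MFA2 (YNL145W, chrXIV:352468-352530, plus strand) are given from the R64 reference, which is the build that the reads were aligned to. R64 is the genome of strain S288c, whereas the spores were of SK1 background. All sequences, pair counts, words and identities given here are those of S288c, and differences from SK1 were not checked. Capitals mark the 4 codons of the CaaX end, whose cysteine is farnesylated.
MFA1: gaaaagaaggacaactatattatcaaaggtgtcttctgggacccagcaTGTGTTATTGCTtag
MFA2: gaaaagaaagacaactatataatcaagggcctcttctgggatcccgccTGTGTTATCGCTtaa

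In the R64 reference, the α-factor precursor gene MFα1 (YPL187W) encodes 165 residues with 4 lysine-arginine pairs, and MFα2 (YGL089C) encodes 120 residues with 2 such pairs. Every one of these pairs is followed by a glutamate-alanine or aspartate-alanine dipeptide. The stretch below runs from the first pair of MFα1 to the next (chrXVI:193897-193959, plus strand). Capitals mark the codons of the lysine-arginine pairs, after which the Kex2 protease cuts. Kex1 then removes the pair left at the carboxyl end of each peptide, and Ste13 removes the dipeptides at the amino end.
MFα1: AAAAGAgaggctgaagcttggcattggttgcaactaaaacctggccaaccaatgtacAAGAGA

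The 10 genes lie on 9 chromosomes and have no introns in the R64 annotation. Their coding lengths run from 720 bp (STE14) to 3873 bp (STE6), and their GC content from 36.9% to 41.7%. None of their 50-base words occurs elsewhere in the reference genome, and no annotated gene overlaps any of them. For 1085 listed features the annotation has no place, so overlap with those was not checked. How strand was treated in the counting is not given in the sources used here, and reads of a gene and of an antisense transcript over it cannot be told apart.

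Levels between genes were compared as CPM per kilobase of coding length, as a description with no test. STE24 had the highest mean of the 10 genes (102 ± 22.8 CPM per kilobase, SD, n = 4 libraries) and RCE1 the lowest (20.01 ± 10.5), a ratio of 5.11. The median over 5800 tested genes with a known length was 71.3, so that STE24, STE13 (82.8 ± 15.9) and KEX2 (71.9 ± 2.18) lay above the middle of the transcriptome. STE23 (60.2 ± 11.5), STE14 (59.7 ± 33.1), KEX1 (56.9 ± 24.5), AXL1 (48.4 ± 12.4), RAM1 (45.3 ± 6.48) and STE6 (32.5 ± 9.54) followed. Each gene's range over the 4 libraries overlapped that of its neighbor in this order, and RAM1 was above STE6 in 4 of 4 libraries although their ranges overlapped. KEX2, which encodes the furin-like protease that opens the α-factor precursor, was the steadiest, with its highest library 1.07-fold above its lowest. In RCE1 this ratio was 3.53, in STE14 3.07, in KEX1 2.34 and in STE6 2.03, and in the other 5 genes it lay between 1.40 and 1.77.

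**Figure D1:**
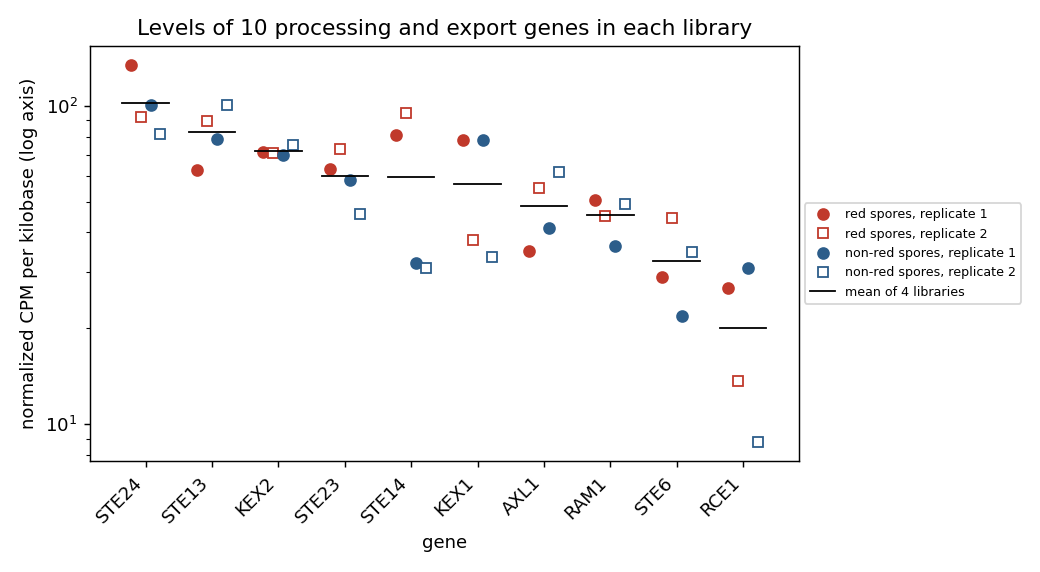
Normalized CPM per kilobase of coding length (log axis) of the 10 genes in each of the 4 libraries, with red and non-red spores in red and blue, replicates 1 and 2 as filled circles and open squares, and the mean of 4 libraries as a line. STE14 is the gene in which both red libraries (81.1 and 94.9) stand far above both non-red ones (32.0 and 30.9), while KEX1 and RCE1 separate by replicate.

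STE14 encodes the isoprenylcysteine methyltransferase that methylates the new carboxyl end of a-factor and of other farnesylated proteins such as Ras. It had 2101 reads in red replicate 1, 1922 in red replicate 2, 1017 in non-red replicate 1 and 573 in non-red replicate 2. In normalized CPM these were 58.4, 68.4, 23.1 and 22.2. Both red libraries were higher than both non-red libraries, by 2.52-fold within replicate 1 and 3.06-fold within replicate 2. The fitted log2 fold change of red over non-red spores was 1.48, and the SD of the log2 ratios of the 2 replicates was 0.20.

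STE14 had, by the likelihood ratio test of edgeR with replicate number as a block, an unadjusted p of 0.00535 and ranked 51 of 6140 genes by p. After Benjamini-Hochberg adjustment over all genes its FDR was 0.627, so it did not pass the threshold of 0.05. DESeq2 with the same terms gave an FDR of 3.59e-04, and across the 12 alternatives that kept all libraries the FDR ran from that value to 1. With each library left out in turn, in fits with no block, the log2 fold change lay between 1.37 and 1.57. The genes on either side of STE14 on chromosome IV, named after their values were seen, had no such difference. SIZ1 (YDR409W, 251 bp away) had 84.8 and 125 CPM in red and 101 and 139 in non-red spores, and DFM1 (YDR411C, 277 bp away, on the same strand) had 52.7 and 80.4 against 68.6 and 70.7. The summed level of the 6 spore markers was lower in red than in non-red spores in both replicates and that of the 6 proliferation markers was higher in both. The first sum was mostly SPS100 (2151 of 2257 CPM in red replicate 1), and SPS4, SPR1 and SMK1 were higher in red spores in replicate 2. Over both replicates, all 6 spore markers had a fitted log2 fold change below 0. The second sum was mostly HTA1 in level, and CLN2 and CLB2 were lower in red spores in both replicates. SWI5 had 85.0 CPM in red against 40.3 in non-red replicate 1, but 26.7 against 39.5 in replicate 2. CLN1 had 19.1 CPM in red against 0.388 in non-red replicate 2. The part of the spore and proliferation markers in the result was not tested.

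Of the 10 genes, none passed the FDR of 0.05 between red and non-red spores, where 1 of 6140 genes did (0.0163%, hph). The sort marker mCherry, with a fitted log2 fold change of 8.65, missed this threshold too (edgeR, FDR = 0.121). A gene that missed it is therefore not shown to be equal between colors. The study's own edgeR fit with a batch term reports mCherry, hph, YAR064W and Mata1 at this threshold, and it discounts YAR064W. The fit used here thus called fewer genes than that of the study. At an unadjusted p under 0.05 there was 1 of 10, STE14, against 4.54% of all genes tested. With DESeq2 1 of 10 passed the FDR, again STE14, against 3.62% of all genes. In these 10 genes both red libraries were above both non-red ones in 2 (STE14 and STE23) and below them in 0, against 10.3% and 8.88% of all genes. With 10 genes, each of these counts is 1 or 2 genes, too few to set against the background. The fitted log2 fold change was above 0 in 7 genes and below 0 in 3, with a median of 0.20 beside 0.02 over all genes tested.

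In 7 of the 10 genes the log2 ratio between colors was within 0.5 in both replicates, which was true of 44.9% of all genes tested. The exceptions were STE14 in both replicates and STE23 (0.68) and RCE1 (0.63) in replicate 2. STE6, the a-specific transporter that exports a-factor, had 113 and 172 CPM in red and 84.8 and 134 CPM in non-red spores. Within replicate 1 it was 1.33-fold and within replicate 2 1.28-fold higher in red spores, but the values of the colors overlapped because replicate 2 was higher in both. Its log2 fold change was 0.38 (SD of the 2 ratios 0.04), and edgeR gave it an unadjusted p of 0.206. With a library left out and no block, its log2 fold change ran from 0.0391 to 0.749, in fits that mix the color and the replicate difference. AXL1, the haploid-specific protease that makes the last cut at the amino end of a-factor, had 127 and 201 CPM in red and 150 and 225 CPM in non-red spores. Its log2 fold change was -0.20 (SD of the 2 ratios 0.05, unadjusted p = 0.469 in the same test).

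STE23 encodes the second protease of the same insulin-degrading family that can make the cut of Axl1. It had 196 and 226 CPM in red against 180 and 141 CPM in non-red spores, and its log2 fold change of 0.40 matched the SD of its 2 ratios (0.40). STE24, the membrane protease that cuts a-factor at both ends, had 183 and 126 CPM in red and 137 and 111 CPM in non-red spores, with a log2 fold change of 0.30 (SD 0.17). RAM1, the β subunit of farnesyltransferase, had 65.7 and 58.5 CPM in red and 47.0 and 63.7 CPM in non-red spores, and its ratio pointed in opposite directions in the 2 replicates (0.48 and -0.12 on the log2 scale). RCE1, the other protease that removes the last residues after farnesylation, did likewise (-0.21 and 0.63), from 25.3 and 12.9 CPM in red and 29.3 and 8.31 CPM in non-red spores.

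Among the 3 genes of α-factor maturation, KEX2 had 176 and 173 CPM in red and 171 and 183 CPM in non-red spores, a log2 fold change of -0.02 (SD 0.08). KEX1 had 171 and 82.9 CPM in red and 171 and 73.3 CPM in non-red spores (0.09, SD 0.12). STE13, the dipeptidyl aminopeptidase, had 176 and 250 CPM in red and 220 and 280 CPM in non-red spores, a log2 fold change of -0.25 with an SD of 0.11. None of the 3 had an unadjusted p under 0.05 in edgeR's likelihood ratio test (0.354 to 0.935), which does not show that their levels were equal.

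**Figure D2:**
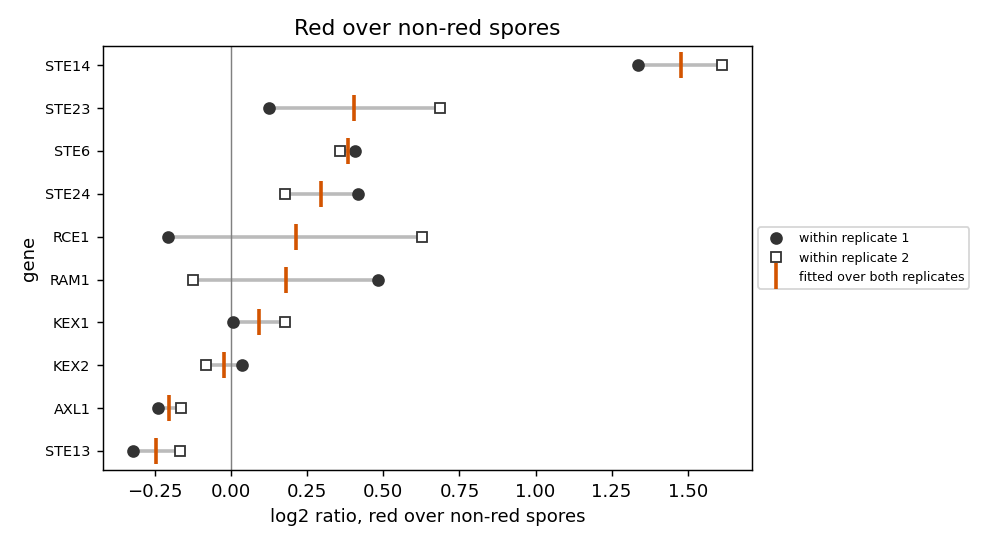
Log2 ratio of red over non-red spores for the 10 genes, within replicate 1 (filled circles) and within replicate 2 (open squares), with the fitted log2 fold change as an orange bar. STE14 stands at 1.34 and 1.61, and the other genes lie between -0.32 and 0.68, on either side of 0 in RCE1, RAM1 and KEX2.

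More genes were called between replicates (1604 of 6140) than between colors (1). KEX1 encodes the carboxypeptidase that trims the lysine-arginine pair from α-factor, and it was the gene of the 10 that passed the test between replicates. It had 6167 reads in red replicate 1, 2330 in red replicate 2, 7518 in non-red replicate 1 and 1889 in non-red replicate 2. In normalized CPM, replicate 1 stood at 171 in both colors and replicate 2 at 82.9 and 73.3, with no overlap. From replicate 1 to replicate 2 KEX1 fell 2.07-fold in red and 2.32-fold in non-red spores. Its log2 fold change of replicate 2 over replicate 1 was -1.13 and passed the edgeR test (FDR = 0.00195). This FDR lay between 1.65e-09 and 0.0221 across 12 alternatives, and KEX1 was also called with each library left out.

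RCE1 had a larger but less even difference, with 912 and 1292 reads in replicate 1 and 363 and 214 in replicate 2. Its log2 ratio of replicate 2 over replicate 1 was -0.97 in red and -1.80 in non-red spores, and the fitted value of -1.39 had an FDR of 0.330. STE24, the other CaaX protease, had a log2 fold change of -0.42 with an FDR of 0.327. The ratio of STE24 to RCE1 per kilobase was 5.03 and 6.77 in red and 3.26 and 9.31 in non-red spores, higher in replicate 2 in both colors.

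STE6, AXL1 and STE13 were higher in replicate 2 in both colors, and their replicates did not overlap. The log2 fold changes were 0.64 for STE6 (edgeR, FDR = 0.111), 0.62 for AXL1 (FDR = 0.0900) and 0.43 for STE13 (FDR = 0.256), none of which passed. AXL1 and STE13 had the most similar profiles among the 45 pairs of the 10 genes, with a Euclidean distance of 0.205 between their 4 centered log2 CPM values. KEX2 (0.04), STE14 (0.09), STE23 (-0.07) and RAM1 (0.14) had log2 fold changes near 0 between replicates. STE13 and KEX1 trim opposite ends of α-factor. Their ratio per kilobase, STE13 to KEX1, was 0.804 and 1.01 in replicate 1 of red and non-red spores and 2.36 and 2.99 in replicate 2.

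Between replicates, 1 of the 10 genes was called lower and 0 higher, against 13.9% and 12.2% of all genes. With DESeq2 6 of 10 were called (STE6, AXL1 and STE13 higher and STE24, KEX1 and RCE1 lower), against 44.1% of all genes. The replicates did not overlap in 3 genes that were higher (30.9% of all genes) and in 3 that were lower in replicate 2 (31.1%), which is close to the background. The median log2 fold change of the 10 genes was 0.06, beside -0.02 over all genes tested. The spore marker sum was higher and the proliferation marker sum lower in replicate 2 than in replicate 1 in both colors. The first sum was mostly SPS100, while DIT1, DIT2, SPR1 and SMK1 were lower in replicate 2 of non-red spores. HTA1 and CLB2 were higher in replicate 2 in both colors, and CLN1 went from 34.7 to 0.388 CPM in non-red spores. Their part in these differences was not tested.

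**Figure D3:**
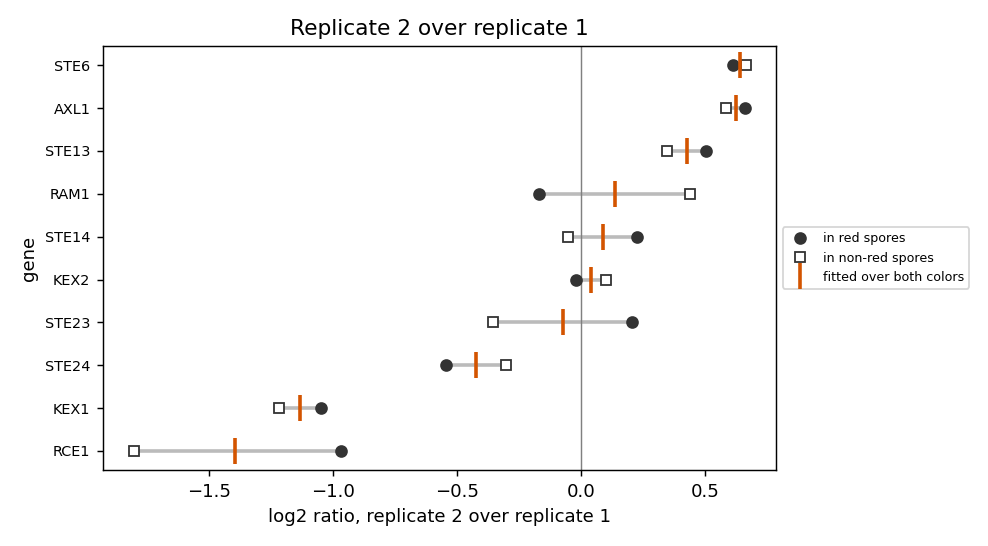
Log2 ratio of replicate 2 over replicate 1 for the 10 genes in red (filled circles) and non-red spores (open squares), with the fitted log2 fold change as an orange bar. KEX1 (-1.05 and -1.22) and RCE1 (-0.97 and -1.80) lie far to the left, and STE6, AXL1 and STE13 lie to the right of 0 in both colors.

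The proteases of the 2 ends of a-factor carry zinc-binding patterns that are visible in the coding sequence. Axl1 (1208 residues) and Ste23 (1027 residues) each have 1 HxxEH pattern, the inverted form that marks the insulin-degrading family, starting at residue 68 of Axl1 and residue 118 of Ste23. Ste24 (453 residues) has 1 HExxH pattern, the usual form of zinc metalloproteases, at residue 297. They are shown with their flanks, the 5 codons of the pattern in capitals, from chrXVI:782228-782278 (plus strand), chrXII:902277-902327 (minus strand) and chrX:642877-642927 (plus strand) of R64.
AXL1: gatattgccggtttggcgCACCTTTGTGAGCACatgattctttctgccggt
STE23: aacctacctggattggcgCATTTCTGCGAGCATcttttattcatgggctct
STE24: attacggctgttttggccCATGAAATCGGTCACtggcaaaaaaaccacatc

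Axl1 and Ste23 were identical at 26.7% of 958 aligned residues. Their transcripts did not keep a fixed proportion, with a ratio of AXL1 to STE23 per kilobase of 0.551 and 0.754 in red and 0.709 and 1.36 in non-red spores. Non-red replicate 2 was the library in which AXL1 was above STE23.

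Precursors, partners and enzymes of like activity were taken as a list of 17 further genes. None passed the FDR of 0.05 between colors in edgeR's test, where 0.0163% of all genes did. Of the 17, 1 had an unadjusted p under 0.05 in that test, against 4.54% of all genes. In red spores 9 were higher and 8 lower, with a median log2 fold change of 0.04. The gene with the low p was MFA2, an a-factor precursor, which had 48.1 and 48.6 CPM in red and 26.0 and 5.51 CPM in non-red spores (log2 fold change 2.01, unadjusted p = 0.0104 with edgeR). With DESeq2, MFA2 alone of the 17 passed the FDR (0.0459), against 3.62% of all genes. MFA1, the other a-factor precursor, had 35.2 and 25.4 CPM in red and 27.1 and 9.79 CPM in non-red spores (0.87, unadjusted p = 0.272 with edgeR). Neither α-factor precursor had a fitted value below 0. MFα2 had 26.8 and 30.3 CPM in red and 24.2 and 21.5 CPM in non-red spores, and MFα1 had 29.7 and 80.1 against 40.4 and 19.96. Both colors thus held reads of the precursor genes of both pheromones beside those of all 10 maturation genes. The study reports antisense transcripts over MFA2, MFα2 and BAR1 in these spores. With the treatment of strand not given, such reads cannot be told from those of the genes themselves.

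Per kilobase the mean levels of the a-factor precursors were above those of the 10 genes, but not in every library. MFA2 had a mean of 274 ± 176 and MFA1 of 220 ± 95.8 CPM per kilobase (SD, n = 4 libraries), against 102 for STE24, the highest of the 10 genes. In non-red replicate 2, MFA2 had 47.1 and MFA1 88.2 CPM per kilobase, both below STE13 (100.3), and MFA2 was also below STE24 (81.7), KEX2 (75.0), AXL1 (62.0) and RAM1 (49.2). The means of MFα1 (85.4 ± 53.0) and MFα2 (70.8 ± 10.4) were near those of STE13 (82.8) and KEX2 (71.9). Single libraries of MFα1 ran from 40.1 to 160.8 CPM per kilobase. The coding sequences of MFA1 and MFA2 are 111 and 117 bp long, so their values per kilobase depend strongly on the length used.

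RAM2, the α subunit that farnesyltransferase shares with the type I geranylgeranyl enzyme, had 85.9 and 47.9 CPM in red and 94.3 and 81.7 CPM in non-red spores. Per kilobase it was above RAM1 in 4 of 4 libraries, with ratios of 1.78 and 1.12 in red and 2.74 and 1.75 in non-red spores. ERG20, the synthase of farnesyl pyrophosphate, had a mean of 204 ± 39.2 CPM per kilobase, above every one of the 10 genes. The signal peptidase genes SEC11, SPC1, SPC2 and SPC3, whose complex cuts secreted precursors such as that of α-factor, had log2 fold changes between -0.59 and 0.78, none with an unadjusted p under 0.05.

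Among enzymes of like activity, 1 of 7 was called higher and 2 lower in replicate 2, against 12.2% and 13.9% of all genes. PRC1, the vacuolar carboxypeptidase that is 29.1% identical to Kex1 over 444 aligned residues, moved the opposite way from KEX1, from 502 and 506 CPM in replicate 1 of red and non-red spores to 1130 and 1066 CPM in replicate 2. Its log2 fold change was 1.12 (edgeR, FDR = 1.05e-04). CDC43, the β subunit of the type I geranylgeranyl enzyme, is 25.4% identical to Ram1 and fell in replicate 2 (log2 fold change -1.47), where RAM1 had 0.14. MKC7, an aspartyl protease of the cell surface, fell as well (-2.30). DAP2, the vacuolar relative of Ste13 with 34.2% identity, had 224 and 206 CPM in red and 203 and 270 CPM in non-red spores. YPS1, another cell-surface aspartyl protease, had a log2 fold change of 0.14 between colors, and BET2, the β subunit of the Rab geranylgeranyl enzyme, with 33.3% identity to Ram1, had -0.31. BAR1, the a-specific protease that degrades α-factor outside the cell, had 33.8 and 29.2 CPM in red and 24.7 and 6.52 CPM in non-red spores (1.30, unadjusted p = 0.138 with edgeR).

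**Figure D4:**
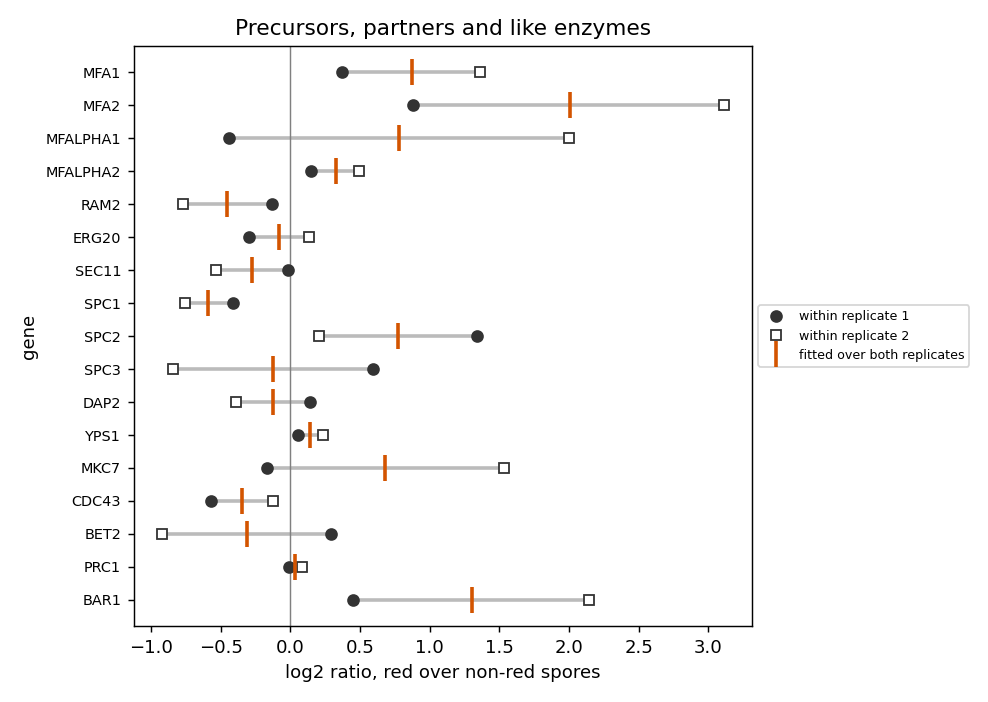
Log2 ratio of red over non-red spores for the 17 further genes, within replicate 1 (filled circles) and replicate 2 (open squares), with the fitted value as an orange bar. MFA2 (0.88 and 3.11) and BAR1 (0.45 and 2.14) lie to the right of 0 in both replicates but with a wide gap between them, and MFα1 (-0.44 and 1.998) crosses 0.

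STE6 was also compared with the other a-specific genes. Of the 8 genes of that list (MFA1, MFA2, STE2, STE6, BAR1, AGA2, ASG7 and AFB1), 6 were higher and 2 lower in red spores. Their median log2 fold change was 0.72 beside 0.02 over all genes. None passed the FDR between colors in edgeR's test, and with DESeq2 MFA2 alone did (FDR = 0.0459), against 3.62% of all genes. For MFA1, MFA2, BAR1, STE2 and ASG7, grouped after their values were seen, the red over non-red ratio was larger in replicate 2 than in replicate 1, where non-red replicate 2 was their lowest library. In STE6 the ratios of the 2 replicates were nearly the same (0.41 and 0.36 on the log2 scale), and its log2 fold change between replicates was 0.64, where those of MFA1, MFA2, BAR1 and ASG7 lay between -1.14 and -0.97. For the remaining 3 genes of the list this value was 0.39 (AFB1), -0.45 (STE2) and -0.61 (AGA2). None of these 8 genes passed the FDR between replicates in edgeR's likelihood ratio test. For MFA2, BAR1, AGA2, ASG7 and AFB1 the study reports antisense transcripts, whose reads cannot be told apart here. The genes with the profile nearest to STE6 over the 4 libraries were SSL2, UBS1 and FES1 (distances of 0.0421, 0.0652 and 0.0782 on the log2 scale). Those nearest to AXL1 were YOL107W, MTC5 and LSB3 (0.0289, 0.0311 and 0.0635). Over 4 libraries such profiles are common, since 83 and 133 of the 6139 other genes lay within 0.25 of STE6 and of AXL1.

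Upstream of the start codons, 500 bp were searched on both strands for short words. CATGTAA, a core of the site bound by the α2 repressor, was present upstream of STE6, AXL1 and STE14, which is 3 of 10 genes, against 6.3% of 6000 protein-coding genes. TACATCA, a core of the a1-α2 site, was present upstream of STE14, STE23 and KEX2 (8.7% of all). TGAAACA, the pheromone response element of Ste12, was present upstream of STE6, AXL1, STE13, STE14, KEX1 and RAM1 (12% of all). GGCGGC, the core of the early meiotic element URS1, was found in 0 of 10 (9.6% of all), and CACAAAA, a core of the mid-sporulation element, in AXL1 (12.5% of all). A match is a description of the letters and not evidence of a bound site.

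The CATGTAA words are shown for the a-specific STE6, the haploid-specific AXL1 and STE14, which of the 10 genes had the largest fitted difference between colors, and for MFA1 and MFA2 as known a-specific genes. They lie 212, 181, 129, 210 and 227 bases before the start codons, counted from the first base of the word, and are printed in the direction of the gene. The capitals mark the word, as CATGTAA in STE6 and as its reverse complement in the others. The windows are chrXI:46481-46527 (minus strand), chrXVI:781844-781890 (plus), chrIV:1293194-1293240 (minus), chrIV:1384946-1384992 (plus) and chrXIV:352167-352213 (plus) of R64.
STE6: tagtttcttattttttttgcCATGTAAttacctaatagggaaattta
AXL1: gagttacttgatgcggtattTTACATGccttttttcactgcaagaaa
STE14: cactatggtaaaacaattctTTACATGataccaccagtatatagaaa
MFA1: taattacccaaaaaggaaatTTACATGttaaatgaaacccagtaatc
MFA2: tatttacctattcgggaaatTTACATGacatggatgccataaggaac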

How the data were processed

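RNA-seq reads of 4 libraries from sorted spores were aligned by the authors with STAR 2.7.3a to R64 with the mCherry and hph sequences added, and counted per gene with featureCounts of Subread in its paired setting. Per gene, the authors deposited an estimated count without scaling, and 61.7% to 69.3% of the non-zero values in a library were fractional. They were rounded to whole numbers. The fit ran on the whole table in R 4.3.3 with edgeR 4.0.16 (filterByExpr, TMM, generalized linear model with color and replicate number, likelihood ratio test, Benjamini-Hochberg adjustment over 6140 genes, FDR of 0.05), after the model and batch term in the study's methods. The same model gave the comparison of replicates. DESeq2 1.42.0 was an alternative, as were other filters, normalizations, terms and tests. CPM are TMM-normalized, and an offset of 0.125 CPM was used for ratios within a replicate and a prior count of 0.125 for fitted values. The script was tested on simulated data.

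Same-numbered libraries deviated together from the means of their groups (r = 0.407 across 6140 genes), and the pairing comes from the replicate numbers and the repeated sporulation and sorting. The members, gene lists, markers and words were chosen with earlier results of these data known. Genes named are the 10 members, the lists of precursors, partners, like enzymes, a-specific genes and markers, and the 3 genes nearest in profile to STE6 and AXL1, and, chosen after their values were seen, the neighbors of STE14 (SIZ1 and DFM1). Loci and sequences are from the R64 RefSeq annotation, whose locus tags match 6047 of 7132 features. Coding sequences were translated for lengths and identity with biopython 1.88 (global alignment, BLOSUM62), and figures were drawn with matplotlib 3.10.9.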

Additional observations from a re-analysis of the deposited data

How the results depend on the processing

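The number of the 10 genes called between red and non-red spores was 0 in every setting, those leaving out a library included, except DESeq2 with the same terms, which called 1 (STE14). The number called over all genes was 1, and became 222 with DESeq2, 3 with upper quartile normalization, 5 with library totals, 5 with a minimum of 10 CPM in any library, and 0 with the quasi-likelihood test and no replicate block, where 41 genes reached an unadjusted p of 0.05. With the likelihood ratio test and no replicate block it was 1, and STE14 had a log2 fold change of 1.48 (unadjusted p = 0.0146), and leaving out each library, which required fits with no block, gave 2 to 29 (2 and 4 without red replicate 2 and red replicate 1, 10 without non-red replicate 2 and 29 without non-red replicate 1). Between replicates, 1604 genes and 1 of the 10 were called, against 2706 and 6 with DESeq2, and 833 to 1616 genes and 1 of the 10 with each library left out and no color term (833 without non-red replicate 1).

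KEX2 turned to a log2 fold change of 0.0133 between colors with library totals. With each library left out in turn and no block, the color difference took both signs for AXL1 (-0.56 to 0.13, with 0.0742 without red replicate 1), STE24 (-0.0113 to 0.56), KEX1 (-0.59 to 0.79), KEX2 (-0.08 to 0.0268), RAM1 (-0.0439 to 0.40) and RCE1 (-0.61 to 1.20, with -0.576 without red replicate 1). It kept its sign but moved for STE6 (0.0391 to 0.749), STE13 (-0.51 to -0.0292) and STE23 (0.232 to 0.578), and lay between 1.37 and 1.57 for STE14. The replicate difference took both signs for STE14 (-0.87 to 0.94, with -0.378 without non-red replicate 1), STE23 (-0.42 to 0.27) and RAM1 (-0.11 to 0.35). None of these was called. With a library left out and no block, colors and replicates were unbalanced, so each of those values mixes the color and the replicate difference. How much of each it holds was not tested. The ratio of the highest to the lowest gene per kilobase was 5.11, and 5.07 to 5.15 with library totals or TPM. Annotated and coding lengths were equal, so that alternative gave no other value. Each color had 2 libraries and the model 1 residual degree of freedom, so a difference that missed the threshold is not shown to be absent.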
